A study of Drosophila melanogaster with 2 samples.

Results

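Small nuclear RNA (snRNA) genes encode the short RNAs at the core of the splicing machinery, and here they were examined for binding of peb, the zinc finger transcription factor pebbled (hindsight). Every gene of biotype snRNA on the 7 main chromosome arms of the fly annotation was taken, which gave 32 of 18277 annotated genes, transposable elements left aside. The data are anti-GFP ChIP-seq peak lists from whole Drosophila melanogaster embryos of the strain peb-GFP, aged 0 to 24 h, in which peb is made as a peb-eGFP fusion from an inserted transgene. Which promoter drives the insertion, and whether untagged peb was also present, is not given in the labels. There were 2 biological replicates of this 1 group, with no second genotype, stage or treatment, and the labels give chromatin sonicated to 200 to 800 bp. Because whole embryos were used, a peak averages over all tissues, and fewer cells with a bound site cannot be told apart from weaker binding in each cell.

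The snRNAs fall into a few classes by task. U1, U2, U4, U5 and U6 build the major spliceosome, while U11, U12, U4atac and U6atac serve the minor one together with U5. U7 guides the cutting of histone mRNA ends, and 7SK holds the elongation kinase P-TEFb in an inactive complex. Most of these genes are transcribed by RNA polymerase II, but U6, U6atac and 7SK genes are transcribed by RNA polymerase III. In flies both kinds carry a proximal sequence element upstream of the start, which the SNAPc complex binds, and the polymerase III kind adds a TATA box. peb itself is known for roles in the amnioserosa, midgut, trachea and photoreceptors of the fly, and its mammalian homologue is RREB1.

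The annotation holds several copies of the major snRNA genes, namely 5 of U1, 6 of U2, 3 of U4, 7 of U5 and 3 of U6. There are 2 genes of 7SK and 1 each of U7, U11, U12, U4atac, U6atac and LU. The genes are 71 to 444 bp long. Chromosome arm 2L carries 16 of them, 3R carries 10, 3L carries 4 and X carries 2. In all, 16 of the 32 sit in an intron of another gene, 2 overlap an exon of a noncoding RNA gene and 14 overlap no other gene.

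A peak summit of the joint thresholded list, which the authors made from both replicates, fell within 200 bp of 5 snRNA genes, U1:21D, U1:95Ca, U2:34ABb, U4:39B and U5:63BC. The reference sequence from 100 bases upstream to 20 bases into each of these genes is shown in the direction of transcription on dm6, so that the promoters with a peak can be read next to those without one. Capitals mark the word ATTCCCA.
U1:21D (chr2L:901635-901754, minus strand): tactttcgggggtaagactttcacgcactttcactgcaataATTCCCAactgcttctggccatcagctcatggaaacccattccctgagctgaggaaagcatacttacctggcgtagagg
U1:95Ca (chr3R:23859611-23859730, minus strand): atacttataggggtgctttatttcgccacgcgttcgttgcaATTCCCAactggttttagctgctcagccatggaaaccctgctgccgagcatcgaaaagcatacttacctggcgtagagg
U2:34ABb (chr2L:13215739-13215858, plus strand): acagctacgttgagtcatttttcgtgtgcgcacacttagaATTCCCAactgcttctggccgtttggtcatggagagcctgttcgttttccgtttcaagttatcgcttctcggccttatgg
U4:39B (chr2L:21215159-21215278, minus strand): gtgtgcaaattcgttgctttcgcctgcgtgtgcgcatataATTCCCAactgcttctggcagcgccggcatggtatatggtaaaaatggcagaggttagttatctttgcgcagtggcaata
U5:63BC (chr3L:3090701-3090820, plus strand): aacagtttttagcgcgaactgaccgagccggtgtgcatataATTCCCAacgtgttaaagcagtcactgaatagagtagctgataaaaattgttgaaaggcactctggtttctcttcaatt

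In each of the 5 genes that word starts 59 or 60 bases before the first base of the gene. The remaining U1 promoters, which had no thresholded peak, are shown in the same way because the RNA they drive is nearly the same.
U1:95Cb (chr3R:23827770-23827889, plus strand): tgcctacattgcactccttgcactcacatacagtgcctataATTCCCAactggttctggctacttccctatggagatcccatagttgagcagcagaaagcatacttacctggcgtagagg
U1:95Cc (chr3R:23826234-23826353, plus strand): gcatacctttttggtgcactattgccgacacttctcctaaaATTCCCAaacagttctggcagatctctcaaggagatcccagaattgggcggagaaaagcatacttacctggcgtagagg
U1:82Eb (chr3R:4948077-4948196, minus strand): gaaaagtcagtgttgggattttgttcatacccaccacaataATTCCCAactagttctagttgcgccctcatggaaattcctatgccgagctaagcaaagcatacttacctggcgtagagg

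The U1 copies differ far more upstream than inside the gene. The gene itself is shown once, with capitals at the 3 positions where any of the 5 copies differs from another.
U1:21D (chr2L:901491-901654, minus strand): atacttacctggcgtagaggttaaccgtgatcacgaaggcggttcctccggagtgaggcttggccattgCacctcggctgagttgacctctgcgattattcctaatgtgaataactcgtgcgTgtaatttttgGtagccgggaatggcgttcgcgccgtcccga

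Counted from 1 at the first base of the gene, U1:95Ca and U1:95Cb have the sequence of U1:21D exactly. U1:95Cc differs by T123C, and U1:82Eb differs by C70T and G134T, with the base of U1:21D given first. Over the 10 pairs of U1 copies the genes are 98.2% to 100% identical, and the 100 bases upstream are 59.6% to 67.6% identical.

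The joint list holds 2845 peaks and was thresholded by the authors at the irreproducible discovery rate (IDR), a measure of how consistently peaks rank between inputs. All 5 summits lay inside the snRNA gene itself, not merely near it, so a window of 0, 100 or 200 bp gives the same count of 5 of 32 genes (15.6%, exact 95% interval 5.28% to 32.8%). Of the 18245 other genes, 7.05% had a joint summit inside the gene and 11.7% had one within 200 bp. The members' interval contains the 200 bp background and also the background inside the gene. Within 1000 bp the count was 7 of 32 snRNA genes (21.9%, interval 9.28% to 40.0%), against 16.2% of other genes, again within the interval.

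Gene length sets how large a target a gene presents, and the snRNA genes are short. Of the 2369 other genes no longer than 444 bp, the length of the longest snRNA gene, 0.76% had a joint summit inside the gene (interval 0.451% to 1.2%), below the snRNA interval. Within 200 bp of such short genes the share was 2.24% (1.68% to 2.92%), also below the snRNA interval, and within 1000 bp it was 6.16% (5.23% to 7.21%), again below it. In the conservative joint list 1.82% of short genes had a summit within 200 bp and 5.49% within 1000 bp, against snRNA intervals of 1.98% to 25.0% and 3.51% to 29.0%. In replicate 1 the shares of short genes were 1.1% and 2.95%, against a snRNA interval of 3.51% to 29.0% in both windows. In replicate 2 they were 1.27% and 4.09%, inside the snRNA intervals of up to 10.9% within 200 bp and 0.766% to 20.8% within 1000 bp. None of 290 tRNA genes had a summit inside the gene, which allows a share of up to 1.26%, and 1.72% had one within 200 bp. None of 269 snoRNA genes had one inside, which allows up to 1.36%, and 1.12% had one within 200 bp. Protein-coding genes, which are much longer, had one inside in 8.4% of cases and within 200 bp in 14.0%. The intervals count genes only, several snRNA genes share sequence or lie side by side, and the short genes were set beside the members without a test. The class of short genes was not among the planned backgrounds.

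**Figure D1:**
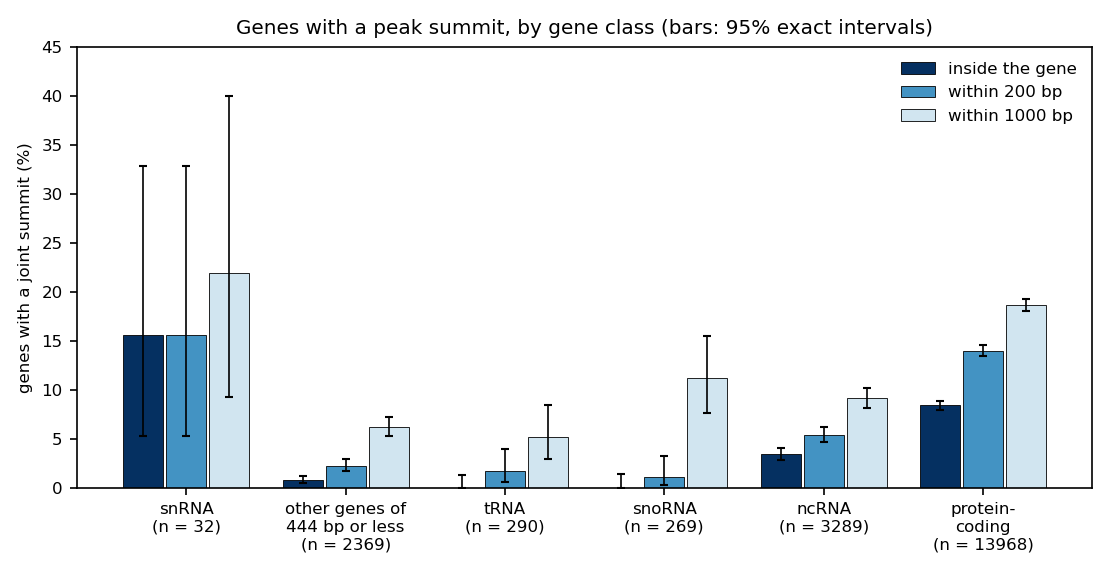
Share of genes with a summit of the joint thresholded peak list (y axis, percent) inside the gene, within 200 bp and within 1000 bp, for snRNA genes and 5 other gene classes (x axis), with exact 95% intervals. snRNA genes stand at 15.6%, 15.6% and 21.9%, against 0.76%, 2.24% and 6.16% for other genes of 444 bp or less. Over all other genes, which are not drawn, the shares were 7.05%, 11.7% and 16.2%, each within the snRNA interval.

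U1 snRNA base-pairs with the 5′ splice site at the start of splicing, and 2 of the 5 U1 genes had a thresholded joint peak. At U1:95Ca (FBgn0004185, chr3R:23859467-23859630, minus strand, in no other gene) the joint peak chr3R:23859415-23859738 had a signal value of 84.7 and the highest possible score of 1000, with its summit 53 bp from the gene start. The signal value is the peak's own value from the authors' pipeline, and it cannot be compared between lists. In replicate 1 the gene had a thresholded peak of signal value 52.3 and score 1000, with its summit at 57 bp. In replicate 2 it had an entry in the ranked list only, of signal value 31.3 at 86 bp, whose score of 784 lies just under the lowest thresholded score of 830. The nearest protein-coding TSS, that of Pli, lies 30422 bp from the gene start.

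At U1:21D (FBgn0003916, chr2L:901491-901654, minus strand, in no other gene) the joint peak chr2L:901409-901732 had a signal value of 71.7 and a score of 1000, with its summit at 83 bp. Replicate 1 had a thresholded peak of signal value 48.4 at 92 bp. Replicate 2 had a ranked entry of signal value 25.3 at 81 bp with a score of 345. The 3 summits lie within the same stretch of the gene, and the nearest protein-coding TSS, that of Lsp1beta, lies 3010 bp from the gene start.

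The other U1 copies had no thresholded peak within 1000 bp. U1:82Eb had ranked entries in all 3 lists, of signal value 30.9 in the joint list, 18.7 in replicate 1 and 11.2 in replicate 2. Of these 3 lists, U1:95Cb, whose RNA is identical to that of U1:21D and U1:95Ca, had an entry within 200 bp only in replicate 1, of signal value 16.6 with a score of 30. U1:95Cc had a joint entry of signal value 19.3, upstream of the gene by 67 bp, and a replicate 1 entry of 6.63. Both of these copies lie in introns of CG34355.

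U2 snRNA pairs with the branch point. At U2:34ABb (FBgn0004192, chr2L:13215839-13216030, plus strand, in no other gene) the joint peak chr2L:13215848-13216171 had a signal value of 82.2 and a score of 1000, with its summit at 171 bp, near the 3′ end of the 192 bp gene. Replicate 1 had a thresholded peak of signal value 53.5 whose summit, at 194 bp, lay 3 bp past the gene. Replicate 2 had a ranked entry of signal value 30.6 at 118 bp, with a score of 811, just under the threshold. The TSS of kek4, a membrane protein gene, lies 489 bp from the gene start and 660 bp from the joint summit. The other 5 U2 genes had no thresholded peak within 1000 bp. Of these, U2:34ABc reached 20.3 in the joint ranked list, U2:34ABa reached 3.94, and U2:14B, U2:38ABa and U2:38ABb had no entry within 200 bp in any of the 3 lists.

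U4 snRNA keeps U6 inactive until the spliceosome is activated. At U4:39B (FBgn0003930, chr2L:21215036-21215178, minus strand, in an intron of Atg18b) the joint peak chr2L:21214988-21215311 had a signal value of 43.5 and a score of 848, with its summit at 28 bp. The replicates had only ranked entries there, of signal value 31.2 at 53 bp with a score of 289 in replicate 1 and of 16.3, upstream of the gene by 69 bp, with a score of 118 in replicate 2. U4:25F and U4:38AB had no entry within 200 bp in any of the 3 lists.

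U5 snRNA aligns the exon ends for joining. At U5:63BC (FBgn0003938, chr3L:3090801-3090923, plus strand, in no other gene) the joint peak chr3L:3090761-3091084 had a signal value of 46.0 and a score of 887, with its summit on the last base of the gene, at 122 bp. The replicates had ranked entries of signal value 18.2 at 123 bp with a score of 27 in replicate 1 and of 30.1 at 118 bp with a score of 609 in replicate 2. The summits of the 3 lists lay within 5 bp of one another. Of the other 6 U5 genes, U5:34A reached 15.6 and U5:38ABa reached 19.3 in the joint ranked list, and the remaining 4 had no entry within 200 bp in any of the 3 lists. The nearest protein-coding TSS to U5:63BC, that of PAN3, lies 8823 bp away.

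The 2 further genes within 1000 bp had their joint peak beside the TSS of a protein-coding neighbour. The strongest peak near any snRNA gene was that of 7SKa (FBgn0065099, chr3R:7474553-7474996, minus strand), with a signal value of 250.5 in the joint list, 98.9 in replicate 1 and 154.5 in replicate 2, all thresholded, but its summit lay 608 bp past the end of the gene and 164 bp from the TSS of CG1142. 7SKa also had a peak of its own in replicate 1, thresholded, of signal value 37.0 at 169 bp. That peak appeared in the joint ranked list at 41.1 with a score of 578, and replicate 2 had no entry within 200 bp. At U11 (FBgn0083987, chr3L:3893056-3893330, minus strand, in an intron of Fie) the joint peak of signal value 44.4 and score 864 lay 715 bp from the gene and 233 bp from the TSS of Fie, and replicate 2 had it thresholded at 34.6. On the gene itself U11 had only ranked entries, of 20.5 in the joint list, 14.1 in replicate 1 and 6.48 in replicate 2.

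No joint summit lay at a distance between 0 and 608 bp, so the 200 bp limit has no member close to it on either side. Just inside the 1000 bp limit are U11 at 715 bp and 7SKa at 608 bp, and just outside it are U2:34ABa at 3894 bp and U5:35D at 4304 bp. In the ranked lists the limit of 200 bp was closer to members. U5:38ABa lay just inside it at 190, 187 and 180 bp in the joint list, replicate 1 and replicate 2, and U6:96Ab just outside it at 311 bp in replicate 1 and 276 bp in replicate 2.

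More snRNA genes passed the threshold in replicate 1 than in replicate 2. Replicate 1 alone (1418 thresholded peaks) had a summit within 200 bp of 4 snRNA genes, 7SKa, U1:21D, U1:95Ca and U2:34ABb (12.5%, interval 3.51% to 29.0%), and 3 of those summits were inside the gene. The backgrounds were 6.85% of other genes within 200 bp and 4.09% inside the gene. Replicate 2 alone (2054 thresholded peaks) had none inside or within 200 bp of the 32 genes, which allows a share of up to 10.9%, against 9.28% within 200 bp and 5.44% inside for other genes. Within 1000 bp the counts were 4 of 32 in replicate 1, against 9.47% of other genes, and 2 of 32 in replicate 2, 7SKa and U11 (6.25%, interval 0.766% to 20.8%), against 12.9%. The authors' conservative joint list (2689 peaks) kept U1:21D, U1:95Ca and U2:34ABb within 200 bp and dropped U4:39B and U5:63BC. That is 9.38% of snRNA genes (interval 1.98% to 25.0%), against 11.1% of other genes in the same list. The joint list was made from the same alignments as the replicate lists, so it is not a further replicate.

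**Figure D2:**
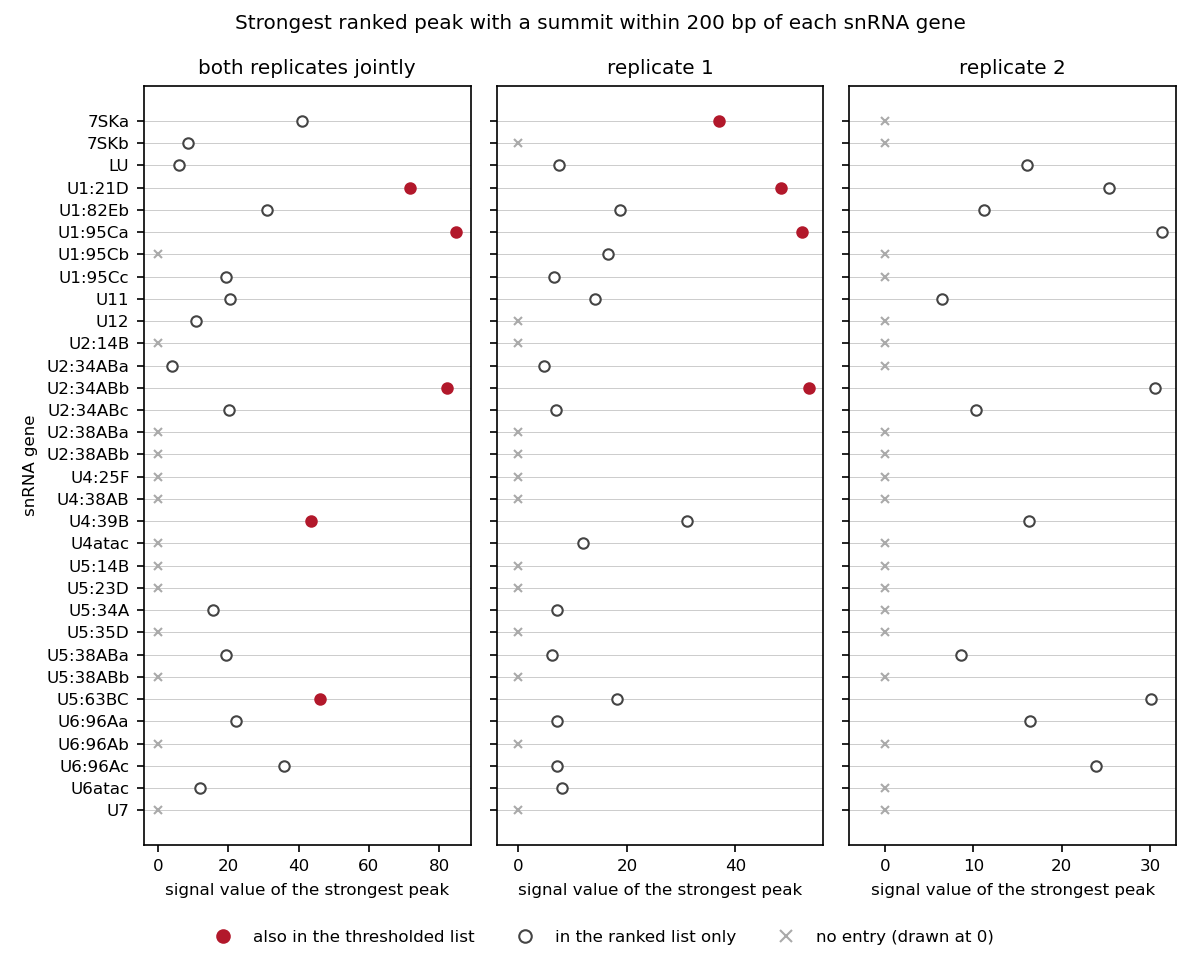
Signal value of the strongest ranked peak whose summit lies within 200 bp (x axes, 1 panel per list, each on its own scale) for each of the 32 snRNA genes (y axis). Filled points were also thresholded: 5 genes jointly, 4 in replicate 1 and none in replicate 2, where U1:95Ca is highest at 31.3.

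The ranked lists reach far below the threshold, with 92933 entries in the joint list, 68609 in replicate 1 and 49814 in replicate 2. Within 200 bp, 19 snRNA genes had an entry in replicate 1, 12 had one in replicate 2 and the same 12 had one in both, while 13 had none in either replicate. Of other genes, 69.8% had one in replicate 1 and 63.7% in replicate 2. Of other genes of 444 bp or less the shares were 27.4% and 22.2%. An entry in both was found for 12 of 32 snRNA genes (37.5%), against 54.5% of other genes and 11.9% of other genes of 444 bp or less. Within 1000 bp, 25 of 32 had an entry in both, against 73.9% of other genes and 48.9% of other genes of 444 bp or less. The 5 genes with none in either were U2:14B, U2:38ABa, U4:25F, U5:14B and U7. A ranked entry is given here as a value, not as a call.

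Entries of higher signal value were counted separately. Taking only those at or above the median signal value of each list, 10.5 in replicate 1 and 11.1 in replicate 2, 6 of 32 snRNA genes had one within 200 bp in both replicates, against 37.8% of other genes and 5.83% of other genes of 444 bp or less. These were the 5 genes with a joint peak and U1:82Eb, and the joint list was called from the same alignments. The order was not the same in the replicates, since U5:63BC was near the top in replicate 2 at 30.1 but at 18.2 in replicate 1, where U2:34ABb had 53.5. Over the 12 genes with an entry in both, Spearman's rho between the replicates' signal values was 0.66, as a description of entries that come from 1 genome and 1 pipeline. It pairs the strongest entry of each replicate, which need not be the same peak. At U5:38ABa, for example, the paired summits lay at -187 bp and 306 bp, and at LU at 129 bp and -141 bp. The value therefore does not describe agreement at shared sites only.

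The polymerase III genes differed among themselves. U6:96Ac, 1 of 3 U6 genes of identical RNA in a row on 3R, had ranked entries of 35.7 in the joint list, 7.15 in replicate 1 and 23.8 in replicate 2, with the joint summit upstream of the gene by 41 bp. The replicates placed it differently, at 99 bp with a score of 13 in replicate 1 and at -141 bp with a score of 319 in replicate 2. U6:96Aa had 22.2 in the joint list, 7.15 in replicate 1 and 16.5 in replicate 2, and U6:96Ab had no entry within 200 bp. U6atac reached 11.8 in the joint list and 8.08 in replicate 1. None of the U6, U6atac and 7SK genes had a joint thresholded summit within 200 bp. They are 6 of the 32, too few to compare with the polymerase II genes. The sequences of 7SKa and of both U6 genes with entries are shown as above, with capitals on ATTCNCA, in which N is any base, and on TATAAA or TATATA.
7SKa (chr3R:7474977-7475096, minus strand): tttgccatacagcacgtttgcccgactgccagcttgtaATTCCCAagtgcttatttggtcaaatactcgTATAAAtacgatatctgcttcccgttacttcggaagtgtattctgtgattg
U6:96Aa (chr3R:24555988-24556107, plus strand): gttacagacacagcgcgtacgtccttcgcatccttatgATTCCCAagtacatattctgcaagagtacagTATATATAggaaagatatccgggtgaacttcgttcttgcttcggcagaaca
U6:96Ac (chr3R:24557115-24557234, plus strand): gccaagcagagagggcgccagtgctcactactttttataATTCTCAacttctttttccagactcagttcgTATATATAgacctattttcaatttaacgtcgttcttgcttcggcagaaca

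The word ATTCCCA was the most frequent 7-base word between 100 and 20 bases upstream of the snRNA genes, on the strand of the gene, and it was present in 26 of 32. A shifted word, TTCCCAA, overlapped it and was as frequent. It began 62 to 56 bases before the gene start, with a median of 59. Since the word was chosen as the most frequent in the members, its count in them is a description. The same stretch of the other genes held it in 0.729% of cases on the strand of the gene and 0.586% on the other strand, where no snRNA gene held it. With any base allowed at the fifth letter, ATTCNCA, the count was 31 of 32, all but 7SKb, against 2.61% of other genes.

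The word occurred in genes with and without a peak. It was present in 5 of 5 genes with a joint summit within 200 bp and in 21 of 27 without one. TATAAA was found in the same stretch of 2 snRNA genes, 7SKa and U6atac, and TATATA in the 3 U6 genes. None of the 5 genes with a joint peak had TATAAA or TATATA there. Of other genes, 12.3% had TATAAA and 7.54% had TATATA on the strand of the gene. On the other strand the share with the first word was 6.07%, and 3 snRNA genes held it there. The second word reads the same on both strands, so its counts on the other strand are necessarily equal and give no separate comparison. A match to a word is a description of the reference sequence and not a measured site.

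The 5 joint thresholded summits lay downstream of the word ATTCCCA, at positions inside the gene. Summits at the same gene could differ between lists. At U4:39B they lay at 28 bp in the joint list, 53 bp in replicate 1 and -69 bp in replicate 2. With chromatin of 200 to 800 bp, such positions do not tell binding at the word from binding inside the gene, which was not tested. Over the 5 genes with a joint summit within 200 bp the median position was 83 bp after the gene start, with a range of 28 to 171 bp. In replicate 1 alone it was 130.5 bp over 4 genes, and replicate 2 alone had no thresholded summit to place. In the ranked lists, the strongest joint entry lay inside the gene in 12 of the 19 genes with one, upstream in 3 and downstream in 4. In replicate 1 the split was 12 inside, 2 upstream and 5 downstream of 19, and in replicate 2 it was 7 inside, 3 upstream and 2 downstream of 12. The joint peaks were 324 bp wide at each of the 5 genes, wider than the gene in every case. Nearly all joint entries near snRNA genes had this same width, weak ones included, so it is not particular to these genes. The joint peak at U2:34ABb did not cover the gene start.

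**Figure D3:**
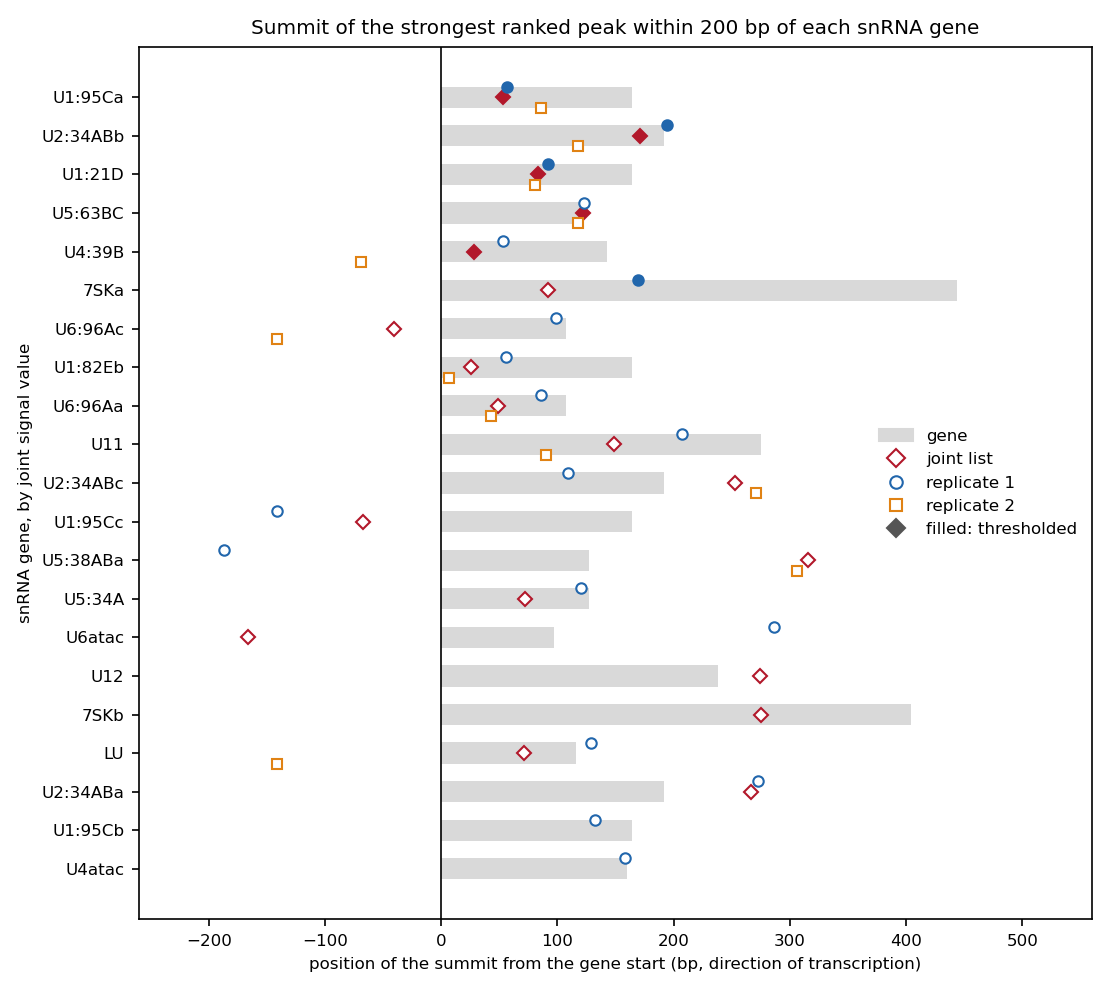
Summit position of the strongest ranked peak within 200 bp, in bp from the gene start along the direction of transcription (x axis), for the 21 snRNA genes with an entry in any of the 3 lists (y axis). Grey bars are the genes, filled symbols are thresholded peaks, and the 5 joint thresholded summits lie 28 to 171 bp after the start.

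Of the 7 snRNA genes with a joint summit within 1000 bp, 4 had a summit with no protein-coding TSS within 1000 bp of it, namely U1:21D, U1:95Ca, U4:39B and U5:63BC. In the whole joint list, 46.4% of summits (1317 of 2841 on the main arms) had none within 1000 bp, so 4 of 7 is near the share of all peaks. In the other lists fewer snRNA genes had a summit within 1000 bp. The count was 2 of 4 in the conservative list, 3 of 4 in replicate 1 alone and 0 of 2 in replicate 2 alone. The share of all summits was not counted in those lists. The distance from gene start to the nearest protein-coding TSS had a median of 3366 bp in the 5 genes with a joint peak, against 3135 bp in the 27 without one, which ranged from 302 to 18369 bp. In all, 5 of the 32 snRNA genes start within 1000 bp of a protein-coding TSS.

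Copies of snRNA genes share sequence, which bears on where reads can be placed. Across the stretches of 50 bases in each gene, none occurs once in the main chromosome arms for U1:21D, U1:95Ca and U2:34ABb, while 44.6% do for U5:63BC and 57.4% for U4:39B. The median over the 27 genes without a joint peak was 46.2%, and 9 genes, none of them with a joint peak, were unique throughout. Of those 27, 6 had no unique stretch either. Among them is U2:34ABc, whose gene is identical to U2:34ABb. With 200 bp on either side included, the share was 69.8% to 91.9% in the 5 genes, with a median of 75.9%, against a median of 90.8% in the others. The 3 highest joint signal values were therefore at genes in which no 50-base stretch is unique, and the identical U1:95Cb, with 0% in the gene and 74.0% with its flanks, had no joint ranked entry within 200 bp. The ranked list behind the authors' conservative one had an entry within U1:95Cb, of signal value 23.2 at 145 bp, and replicate 1 had the one given above. Read length and the treatment of reads that match several copies are not stated in the labels or file headers, and the part of shared sequence in these peaks was not tested.

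**Figure D4:**
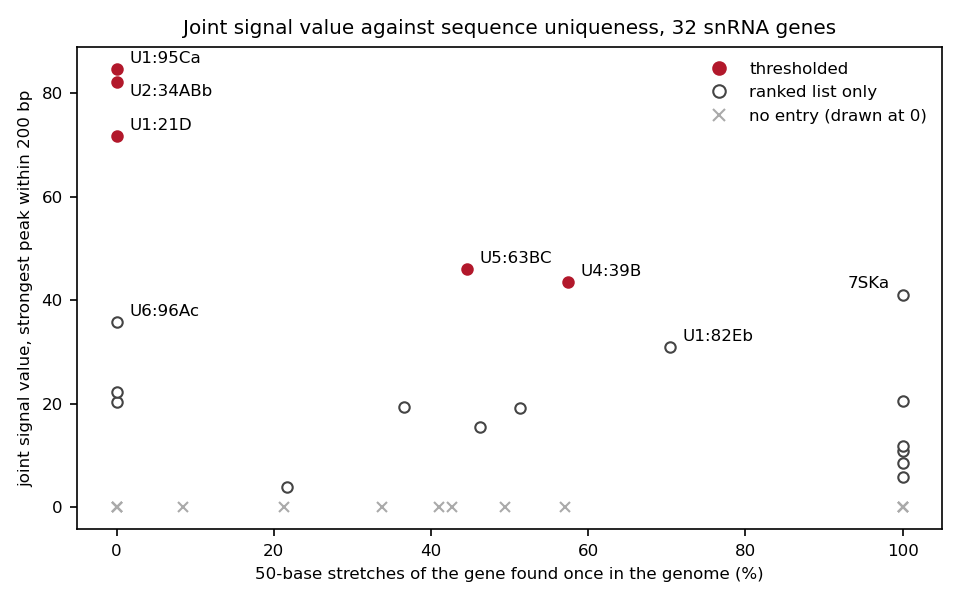
Joint signal value of the strongest peak within 200 bp (y axis) against the percent of 50-base stretches of the gene that occur once in the main chromosome arms (x axis), for 32 snRNA genes. The genes with a thresholded peak are at 0%, 44.6% and 57.4%. The 9 genes at 100%, and 6 further genes at 0%, have no joint thresholded peak within 200 bp.

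The protein genes that make and use snRNAs were examined at their own TSSs. Over 5 lists of such genes, 65 were matched in the annotation and 13 had a joint summit within 1000 bp of a TSS (20%, interval 11.1% to 31.8%), against 13.4% of the 13968 protein-coding genes, a share within the interval. Replicate 1 alone had 8 of the 65 and replicate 2 alone had 9. The share of all protein-coding genes by this rule was not counted in the replicate lists, so these counts have no background.

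Among 10 genes of SNAPc and the basal transcription factors, 3 had a peak. Bdp1 and Brf, subunits of the polymerase III factor TFIIIB, had joint signal values of 172 and 162, with 96.7 and 84.4 in replicate 1 and 74.8 and 72.5 in replicate 2, all thresholded. TfIIA-L, the large subunit of TFIIA, had 138 in the joint list, 76.5 in replicate 1 and 62.1 in replicate 2. The SNAPc subunit genes Pbp45, Pbp49 and Pbp95 had none. These 3 peaks were stronger than those on the snRNA genes in the same lists.

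Integrator cleaves the 3′ ends of polymerase II snRNAs, and 4 of its 14 listed genes had a peak. IntS9 and IntS11, which form its cleavage module, had joint signal values of 104 and 102, with 58.0 and 36.2 in replicate 1 and 53.2 and 69.8 in replicate 2. IntS6 had 69.5 and omd 51.9 in the joint list. Of 12 matched Sm and Lsm genes, whose proteins form rings on snRNAs and mRNAs, LSm1 alone had a peak, of 53.6, thresholded in neither replicate. LSm1 belongs to the cytoplasmic ring that acts in mRNA decay.

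Of 16 genes listed for proteins of particular snRNPs, 2 had a peak. For snRNP-U1-C the values were 65.6 in the joint list, 29.5 in replicate 1 and 38.2 in replicate 2. The U2 component gene Sf3b1 had 45.2 in the joint list only. snRNP-U1-C encodes a protein of the U1 particle. Of 13 genes of snRNP assembly and transport, 3 had a peak. Snup, the snurportin that carries snRNPs into the nucleus, had 82.5 in the joint list and 47.1 in replicate 2, and Cbp20 and Cbp80, the nuclear cap-binding pair, had 55.4 and 49.8 in the joint list. Of this pair, Cbp20 was thresholded in replicate 1 at 28.2 and Cbp80 in neither replicate.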

How the data were processed

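Peaks came from anti-GFP ChIP-seq of 2 biological replicates. Per the file headers, each of 8 lists on dm6 was made from alignments of 1 or both replicates plus 1 more file, which the headers of the fold-over-control tracks also list, and thresholded lists used the IDR. The authors deposited a signal value and a score per peak, the score being the scaled IDR capped at 1000, with 830 as the lowest thresholded value. The aligner and peak caller are not given in the sources used here. The 8 last columns of each ranked list were not mapped to a sample and not used.

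A gene counted when a summit lay within 0, 200 or 1000 bp of it in Ensembl release 115 (BDGP6.54). Sequences were read from the Release 6 (dm6) RefSeq genome. Work was done in Python 3.11.15 (scipy 1.17.1, numpy 2.4.6, pandas 2.3.3; figures, matplotlib 3.10.9), and the window counts were checked on simulated data. Intervals are exact (Clopper-Pearson) at 95% and cover the counting of genes only. The lists give no read numbers, so depth is unknown.

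There was no comparison of groups and no test. Members and gene lists were chosen with earlier results of these data known. Named are every snRNA gene with a thresholded summit within 1000 bp, the 2 members on each side of a window limit, and pathway genes with a joint peak. SmG, LSm5, LSm6 and LSm8 were not matched in the annotation. Alternatives were other lists, windows, score limits and words.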

Additional observations from a re-analysis of the deposited data

How the results depend on the processing

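No paired analysis was possible because there is 1 group. The lists themselves mattered most. For the 5 snRNA genes within 200 bp, the conservative joint list and a score of 1000 each gave 3, and leaving out either replicate gave 0 to 4. For the 7 within 1000 bp, the conservative list and a score of 1000 each gave 4, and leaving out either replicate gave 2 to 4. For the 4 with no protein-coding TSS within 1000 bp of the summit, the conservative list and a score of 1000 each gave 2, and the replicate lists gave 0 to 3. The median summit position of 83 bp was 130.5 bp without replicate 2, and replicate 2 alone gave none. Of the pathway genes, 13 jointly, leaving out a replicate gave 8 to 9. The background within 1000 bp, 16.2%, was 15.6% in the conservative list, 14.0% at a score of 1000, 16.8% by any overlap of the peak, and 9.47% to 12.9% without a replicate. Ranked entries in both replicates were 12 of 32 within 200 bp, 25 within 1000 bp and 6 at or above each list's median signal value. TATAAA was in 2 of 32 snRNA promoters, and in 8 of 32 over 250 bases, where 28% of other genes held it. In all, 29 values stayed within 1.5 times the count or equalled it, some of them within the ranges given above. Among them were every other window and distance to the gene start. ATTCNCA and TATATA were added after the data were seen. The class of other genes of 444 bp or less, the counts inside the gene and the counts of unique stretches were also not planned.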

Other observations

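A few noncoding RNA genes related to snRNAs, chosen after their values were seen, were looked at in the same lists. The scaRNA genes encode the guides that modify snRNAs in Cajal bodies, and none of 17 had a thresholded summit within 200 bp in the joint list or in either replicate, which allows a share of up to 19.5%. The shares of all other genes with such a summit were 11.7% jointly, 6.85% in replicate 1 and 9.28% in replicate 2. Those of other genes no longer than the longest snRNA gene were 2.24%, 1.1% and 1.27%. All of these lie below 19.5%. In the ranked lists 9 of 17 had a joint entry, 8 had one in replicate 1 and 2 had one in replicate 2. The shares of all other genes with such an entry were 76.3%, 69.8% and 63.7%, and those of other genes no longer than the longest snRNA gene were 35.8%, 27.4% and 22.2%, in the same order of lists. RNaseMRP:RNA, the RNA of the enzyme that processes ribosomal RNA, had ranked entries of 32.6 in the joint list, 24.1 in replicate 1 and 12 in replicate 2. RNaseP:RNA, the RNA of the enzyme that trims tRNA 5′ ends, had 14.0 in the joint list and 11.7 in replicate 1. Both 7SL RNA genes, which encode the RNA of the signal recognition particle, had no entry within 200 bp in any list.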
